A study of Mus musculus with 16 samples.

Results

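Integrins are cell-surface receptors made of an α and a β subunit, and laminins are the proteins, each of an α, a β and a γ chain, that form the sheet of the basement membrane. The genes of both families were examined here in mouse melanomas and in melanocytes. Members were all genes whose single symbol in the platform annotation is that of an integrin subunit of the numbered α series, αv or the β series except the leukocyte subunit Itgb2, or of a laminin chain. Of 12393 genes with a probe set of 1 symbol, 26 were members, 16 integrin subunits and 10 laminin chains. A gene with several probe sets was represented by the one with the highest mean over the 16 arrays. Itga1, Itga10, Itga11 and Itgb8 had no such probe set and were not analysed here.

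The study profiled cutaneous melanomas of 2 mouse models on Affymetrix mouse 430A 2.0 arrays and set them against each other, with melanocytes beside them. The iMet tumours (6 arrays) came from Tyr-rtTA;Tet-Met;Ink4a/Arf-/- mice, in which a tetracycline-controlled activator under the tyrosinase promoter, used to direct expression to pigment cells, drives the receptor tyrosine kinase Met. The iHRAS* tumours (6 arrays) came from Tyr-rtTA;Tet-HRASV12G;Ink4a/Arf-/- mice, in which the same activator drives a mutant HRAS. Both models lack the Ink4a/Arf tumour suppressor locus. The melanocytes (4 arrays) were isolated from mice, their disease state is given as none, and their genotype, passage and the age of all animals are not given in the sources used here. Tumour labels speak of isolated melanoma cells, whereas the study's design text speaks of RNA from the melanomas. Whether each array stands for an animal of its own is not in the labels, and the errors below measure the spread between arrays, which may in part be technical.

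Laminin α chains decide which receptors a laminin is bound by, and the γ1 chain, the product of Lamc1, and the β1 chain, the product of Lamb1, are shared by many of the laminin forms. In skin, the integrin made of α6 and β4 joins basal keratinocytes to laminin-332, which contains the products of Lama3 and Lamb3, and the integrins made of α3 and β1 or α6 and β1 bind laminin in several cell types, melanocytes included. The α5 subunit with β1 is a fibronectin receptor, and αv with β3 is a receptor for vitronectin and other ligands with the RGD motif that is known in human melanoma for its increase in the invasive vertical growth phase.

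Values are quantile-normalized log2 signals, and each gene's level was compared only with its own level in other groups, since probe sets differ in brightness. A signal under 6.21, the 40th percentile of all values, was treated as near background, and a gene was tested where it exceeded that level on at least as many arrays as the smallest group in the comparison holds. Between the tumours 18 members passed this filter, and against melanocytes 21 did. The 5 left out of every test were Itga2, Itga4, Itgb6, Lama1 and Lamc3, and Itga8, Lama3 and Lamb3 were also left out between the tumours. A gene was called at an adjusted p under 0.05, from limma with Benjamini-Hochberg adjustment over all genes tested. Array medians of the deposited values ran from 6.56 to 7.28, and correlations between arrays of a group ran from 0.913 to 0.946 among iMet arrays, from 0.880 to 0.954 among iHRAS* arrays and from 0.906 to 0.949 among melanocyte arrays. Met itself averaged 9.47 ± 0.55 on iMet arrays, 6.94 ± 0.77 on iHRAS* arrays and 8.29 ± 0.89 on melanocyte arrays (log2 signal, SD, n = 6, 6 and 4).

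The labelled cell type was set against its defining markers before the members were compared, because several members are typical of epithelium. On the 4 melanocyte arrays the pigment enzymes Tyr, Tyrp1 and Dct and the pigment-cell regulator Mitf averaged 3.97, 4.25, 4.19 and 5.67, all under the level treated as background, while the neural crest regulator Sox10 averaged 9.66. In iMet tumours 2 of 7 melanocyte markers (Mitf and Sox10) averaged above that level, in iHRAS* tumours 4 of 7 did and on the melanocyte arrays 3 of 7. The basal keratinocyte keratin Krt5 had 11.85, 13.69, 11.05 and 13.69 on melanocyte arrays 1 to 4, and its partner Krt14 had 12.47, 13.40, 11.55 and 13.49. Of the 12 keratinocyte markers measured, 9 averaged above background on the melanocyte arrays, and Krt1, Cdh1 and Epcam, which averaged 3.44, 3.77 and 1.63, did not. The part of keratinocyte RNA in the members' levels there was not tested. The melanocyte arrays also fell into pairs: arrays 1 and 3 correlated at 0.949 and arrays 2 and 4 at 0.943, against 0.906 to 0.930 across the pairs, and Krt5 and Krt14 were higher on arrays 2 and 4. Krt1 and Krt10 did not follow those pairs, with Krt10 at 6.83, 7.18, 6.75 and 6.53 on arrays 1 to 4.

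**Figure D1:**
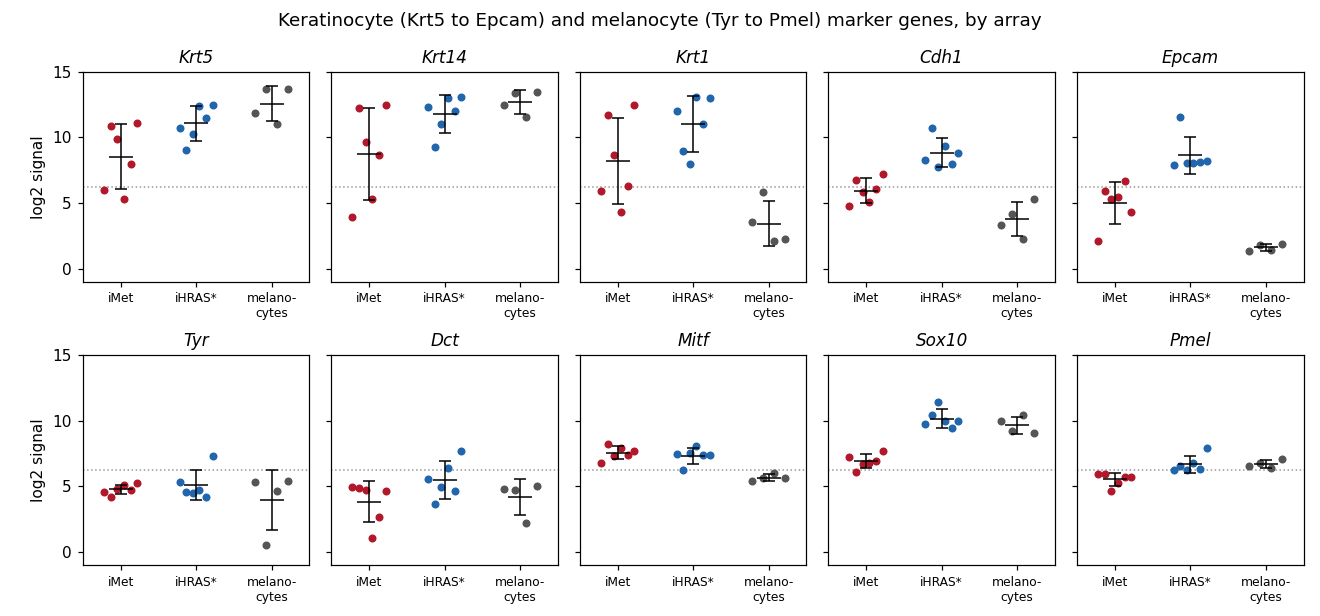
Log2 signal (y axis) of 5 keratinocyte markers (upper row) and 5 melanocyte markers (lower row) on each array of iMet tumours (6), iHRAS* tumours (6) and melanocytes (4). Bars show the mean and SD, and the dotted line marks the level of 6.21 treated as background. Krt5 and Krt14 were high on all 4 melanocyte arrays, whereas Tyr and Dct averaged under the dotted line there.

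In melanomas driven by Met the laminin γ1 chain was higher and the α6, α5 and β3 integrin subunits were lower than in melanomas driven by HRAS. Lamc1 was 2.20-fold higher and Itga6 was 1.88-fold lower, and for these genes every iMet array lay on one side of every iHRAS* array. The calls of Itga5 and Itgb3 were less firm, kept in 5 of 23 and in 16 of 21 alternative analyses. The other 14 of the 18 members tested were not called. This comparison addresses the purpose stated for the arrays, which was to compare the transcriptomes of the models by whether their tumours can metastasise. Of the 18 members 22.2% were called, against 20.9% of the 8058 genes tested in the same fit, which is a share near that of all genes. Of all tested genes 11.2% were higher and 9.7% lower in iMet tumours, and 5.83% and 4.89% had ranges that did not overlap, higher and lower. The median difference was −0.30 over the members and 0.03 over all tested genes, and the share of higher genes among all called was 53.6%, which became 80.1% with values as deposited.

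Lamc1 (chromosome 1) had a lowest, median and highest log2 signal of 10.88, 11.69 and 12.05 in iMet tumours and of 10.12, 10.48 and 10.65 in iHRAS* tumours. The ranges did not overlap, and the iMet array nearest to the iHRAS* tumours was array 5. The difference was 1.14 ± 0.18 (SE, adjusted p = 0.00114), and a second probe set of the gene gave 1.62 ± 0.39 (adjusted p = 0.0127 in a fit of all probe sets, which was added after seeing the data). The call held in all 23 alternatives run, at 1.05 to 1.62. Endothelial markers moved with it: 8 of 12 were called higher in iMet tumours and 0 lower. Their mean was 7.96 ± 0.67 in iMet tumours, with a range of 7.22 to 9.06, and 7.18 ± 0.40 in iHRAS* tumours, with a range of 6.67 to 7.76 (log2, SD, n = 6 each; two-sided exact permutation p = 0.02814, adjusted p = 0.0603). Their part in the level of Lamc1 was not tested.

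Its β1 partner chain Lamb1 (chromosome 12) was at 11.31 ± 0.18 in iMet tumours and 10.96 ± 0.28 in iHRAS* tumours (SD, n = 6 each), which was not called (0.36 ± 0.14, adjusted p = 0.0903), although it was without iHRAS* array 3 (0.43, adjusted p = 0.0431). The other probe sets of Lamb1 gave larger differences, 0.89 ± 0.14 (adjusted p = 0.00138) and 1.02 ± 0.20 (adjusted p = 0.00523), in the fit of all probe sets. The direction was the same in all 3 probe sets, and whether the difference was called depended on which one stood for the gene. The β2 chain Lamb2, typical of muscle and nerve basement membranes, was at 7.39 ± 0.35 in iMet tumours and 7.61 ± 0.54 in iHRAS* tumours (SD, n = 6 each; adjusted p = 0.569).

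Itga6 (chromosome 2), the α partner of both β1 and β4 in laminin receptors, had a lowest, median and highest log2 signal of 9.31, 9.67 and 9.98 in iMet tumours and of 10.31, 10.51 and 10.94 in iHRAS* tumours. Every iMet array was lower than every iHRAS* array. The difference was −0.91 ± 0.15 (SE, adjusted p = 0.00136), the second probe set gave −0.92 ± 0.23 (adjusted p = 0.0148), and the call held in all 23 alternatives, among them the fit with the keratinocyte marker mean as a covariate (−0.72, adjusted p = 0.0488). The remaining laminin-binding subunits had differences in the same direction that were not called. Itga3 averaged 9.01 ± 0.62 in iMet and 9.92 ± 0.78 in iHRAS* tumours (adjusted p = 0.104). Itgb4 averaged 8.42 ± 0.82 and 9.35 ± 0.64 in the same order (adjusted p = 0.107). Itga7, the laminin receptor subunit of muscle, averaged 6.72 ± 0.83 and 7.47 ± 0.56 (adjusted p = 0.169; SD, n = 6 each). Leaving out 1 array gave calls for Itga3 (without iHRAS* 4, −1.18, adjusted p = 0.0211), Itgb4 (without iMet 6, −1.15, adjusted p = 0.0474) and Itga7 (without iMet 4, −1.01, adjusted p = 0.0487).

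The keratinocyte marker mean of the tumours moved with these subunits. It was 6.92 ± 2.07 in iMet tumours, with a range of 4.54 to 9.09, and 9.55 ± 0.86 in iHRAS* tumours, with a range of 8.59 to 10.64 (log2, SD, n = 6 each; two-sided exact permutation p = 0.0195, adjusted p = 0.0487 over the 30 comparisons of marker lists). All 12 markers averaged above background in iHRAS* tumours, and 7 of 12 did in iMet tumours, where Krt15, Krt17, Cdh1, Epcam and Trp63 did not. The Schwann and nerve marker mean was 4.36 ± 0.60 in iMet tumours and 8.32 ± 0.49 in iHRAS* tumours (SD, n = 6 each; exact permutation p = 0.002165, the smallest possible, adjusted p = 0.0159). The melanocyte marker mean was 5.25 ± 0.39 in iMet tumours and 6.74 ± 0.65 in iHRAS* tumours, with the same exact permutation p and adjusted p. Sox10 was at −3.26 ± 0.33 (SE, adjusted p = 9.34e-05). The melanocyte arrays had a Schwann and nerve marker mean of 8.09 ± 0.51 (SD, n = 4), with 5 of 6 markers averaging above background. That mean was close to the one in iHRAS* tumours (two-sided exact permutation p = 0.5, adjusted p = 0.517), so these markers are not particular to the iHRAS* tumours. Within the models, Itga6 and the keratinocyte mean correlated at r = 0.50 (Spearman 0.60) over 6 iMet arrays and at r = 0.45 (Spearman 0.20) over 6 iHRAS* arrays, with two-sided permutation p of 0.333 and 0.368 for r and of 0.242 and 0.714 for Spearman's rho. After adjustment over 36 such relations these were 0.746 for both r and 0.914 and 0.988 for rho, and without the 2 arrays farthest from the median keratinocyte mean r was 0.54 and −0.79. The part of keratinocytes, nerve cells or pigment cells in the tumour differences was not tested beyond the covariate fit. In bulk samples fewer cells of a type and less RNA per cell cannot be told apart.

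Itga5 (chromosome 15) had a lowest, median and highest log2 signal of 10.16, 10.55 and 10.87 in iMet tumours and of 10.48, 11.27 and 11.96 in iHRAS* tumours. The ranges overlapped. The difference was −0.70 ± 0.22 (SE, adjusted p = 0.0398). It lost its call when any of iMet arrays 1, 3, 4, 5 or 6 or iHRAS* arrays 2, 3, 5 or 6 was left out, at −0.56 to −0.74 with adjusted p of 0.0534 to 0.0809, and its other probe set gave −0.32 ± 0.50 (adjusted p = 0.685). Over all 23 alternatives the call was kept in 5 and lost in 18, among them values as deposited (−0.58, adjusted p = 0.0948) and the fit of all 3 groups (adjusted p = 0.25).

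Itgb3 (chromosome 11) had a lowest, median and highest log2 signal of 2.36, 3.18 and 6.84 in iMet tumours and of 4.08, 6.73 and 7.22 in iHRAS* tumours. It was under the background level on 5 of 6 iMet arrays, with array 4 as the exception, and above it on 5 of 6 iHRAS* arrays, with array 4 again apart. The difference was −2.67 ± 0.75 (SE, adjusted p = 0.0245), of which the size is poorly measured because the lower signals are near background. The call was lost without iMet array 3, 5 or 6 (−2.47, −2.41 and −2.44, with adjusted p of 0.0567, 0.0528 and 0.0506). Its α partner αv, the product of Itgav, was at 11.49 ± 0.13 in iMet tumours and 11.51 ± 0.22 in iHRAS* tumours (SD, n = 6 each; −0.02 ± 0.12 SE, adjusted p = 0.928).

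Of the laminin α chains, which carry most of the binding sites for integrins, Lama2 averaged 6.11 ± 0.73 in iMet tumours and 7.74 ± 1.31 in iHRAS* tumours (SD, n = 6 each), just outside the threshold (−1.63 ± 0.55 SE, adjusted p = 0.0533). It was called without iMet array 2 or without iHRAS* array 2, 3 or 4 (−1.84 to −1.89, adjusted p of 0.033 to 0.0433). With all arrays kept, it was called with median-centring (−1.61, adjusted p = 0.0491) and with array weights (−2.10, adjusted p = 0.00988). Lama5 was at 7.68 ± 0.39 and 8.19 ± 0.38 in iMet and iHRAS* tumours (−0.51 ± 0.21 SE, adjusted p = 0.106). Lama4 was at 10.25 ± 1.09 and 10.43 ± 0.26 in the same order (−0.18 ± 0.42 SE, adjusted p = 0.79; SD, n = 6 each). Itgb1, the β subunit shared by most laminin and collagen receptors, averaged 11.68 ± 0.24 in iMet tumours and 11.97 ± 0.40 in iHRAS* tumours (SD, n = 6 each; adjusted p = 0.287). It was called as lower only in the fit without iHRAS* array 4 among those that left out 1 array (−0.45, adjusted p = 0.0312). The remaining tested members, Itga2b, Itga9, Itgb5 and Itgb7, had differences of −0.32 to 0.14 and adjusted p of 0.545 to 0.817, with 1 change on leaving out an array (Itgb7 without iHRAS* array 3, −0.73, adjusted p = 0.0473). Without iMet array 3 or 5 the number of members called lower was 1 in place of 3, without iHRAS* array 4 it was 6, and without iHRAS* array 3 the number called higher was 2 in place of 1.

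**Figure D2:**
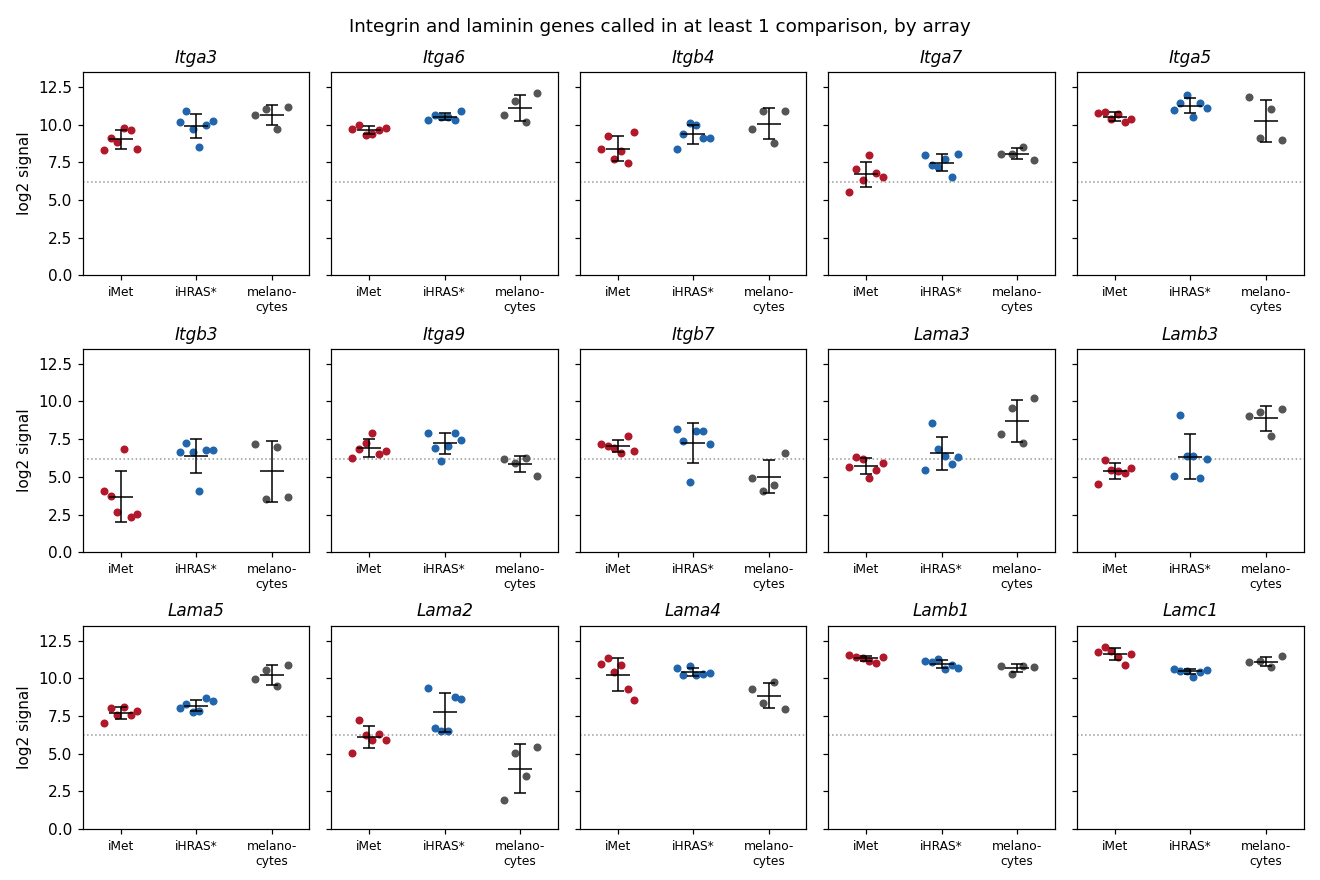
Log2 signal (y axis) of the 15 members called in at least 1 comparison, on each array of iMet tumours (6), iHRAS* tumours (6) and melanocytes (4). Bars show the mean and SD, and the dotted line marks 6.21. Lamc1 was higher and Itga6 lower on every iMet array than on every iHRAS* array, and Lama5 was lower on every tumour array than on every melanocyte array.

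Against melanocytes, 3 laminin chains fell and 3 rose in iMet tumours. Lama3 and Lamb3, chains of laminin-332, and Lama5 fell (log2 differences of −2.96, −3.49 and −2.54), while Lama2, Lama4 and Lamb1 rose, by 2.10, 1.41 and 0.63. Of the integrin subunits, Itga3, Itga6, Itga7 and Itgb4, the 4 listed here as laminin-binding, fell. Itgb1, which is shared with other receptors, was not called in the main fit, though some alternatives given below called it lower. The subunits Itga9 and Itgb7 rose. Of 21 members tested, 5 rose and 7 fell, or 57.1%, against 35.1% of the 8651 genes tested in the fit. Of all those genes 16.4% were higher and 18.7% lower. Ranges that did not overlap were found for 1 member that rose (Lamb1) and 4 that fell (Itga6, Lama3, Lama5 and Lamb3), against 12.6% higher and 15% lower of all tested genes. The median difference was −0.43 over the members and −0.08 over all genes, and higher genes were 46.6% of all called, or 33.8% with arrays centred on their medians.

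In iHRAS* tumours the same melanocyte arrays served as the reference, so the values below share their error with those for iMet tumours. Lama2, Itgb7, Lama4 and Itga9 rose, by 3.74, 2.22, 1.59 and 1.37 on the log2 scale, and Lamb3, Lama3, Lama5 and Lamc1 fell (−2.53, −2.14, −2.03 and −0.65). Of the laminin-binding integrin subunits 0 of 4 were called at the adjusted threshold by limma, and 0 of 4 had an unadjusted p under 0.05. Other probe sets gave calls as lower for Itga3 (−1.37, adjusted p = 0.0347) and Itga6 (−1.05, adjusted p = 0.0313). Itga6 was also called with values as deposited (−0.80, adjusted p = 0.0345), median-centring (−0.82, adjusted p = 0.0305), the mean of all probe sets (−0.81, adjusted p = 0.0476) and the keratinocyte covariate (−0.83, adjusted p = 0.0319). Of 21 members tested, 4 rose and 4 fell, or 38.1%, against 39.3% of the 8651 genes tested, 18.1% higher and 21.3% lower. Ranges did not overlap for Lama2 and Lama4, which rose, and for Lama5 and Lamc1, which fell, against 11.2% and 14.1% of all tested genes. The median difference was −0.21 over the members and −0.09 over all genes, and higher genes were 46.0% of all called, 35.6% with values as deposited and 34.2% with arrays centred on their medians.

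**Figure D3:**
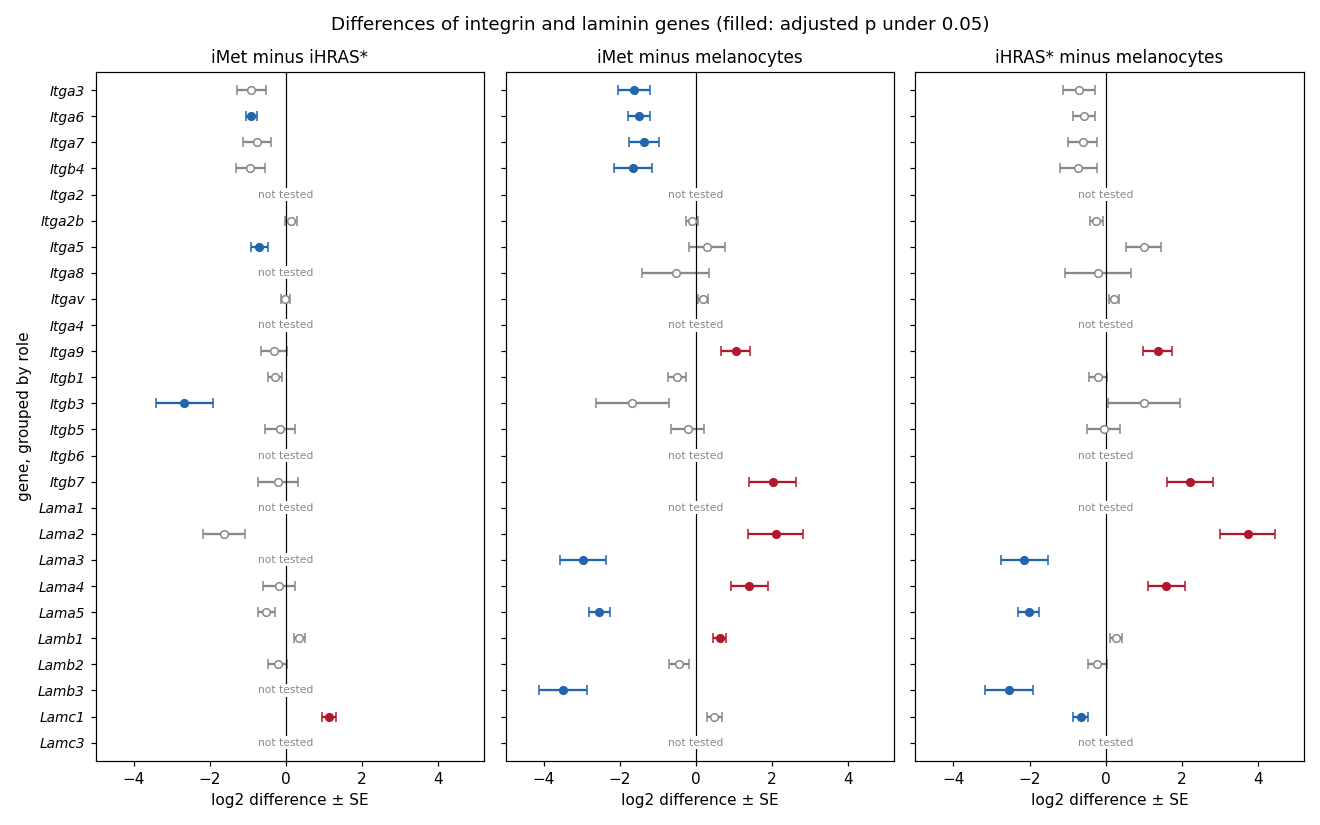
Log2 difference with its standard error (x axis) for each of the 26 members (y axis, grouped by role), as iMet minus iHRAS* tumours, iMet tumours minus melanocytes and iHRAS* tumours minus melanocytes. Filled points passed an adjusted p under 0.05 in limma, open points did not, and members near background were not tested. Lamc1 is the filled point to the right of 0 in the first panel, and Lama3, Lama5 and Lamb3 lie to the left of 0 in the other panels.

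Lama5 (chromosome 2), the α chain of laminin-511, which is found in most epithelial and vascular basement membranes, had a lowest, median and highest log2 signal of 7.03, 7.69 and 8.10 in iMet tumours and of 7.80, 8.17 and 8.71 in iHRAS* tumours, against 9.97, 10.57, 9.46 and 10.88 on melanocyte arrays 1 to 4. All 12 tumour arrays were lower than all 4 melanocyte arrays. The difference was −2.54 ± 0.28 in iMet tumours (SE, adjusted p = 9.6e-06), a 5.80-fold lower level, and −2.03 ± 0.28 in iHRAS* tumours (SE, adjusted p = 8.01e-05), a 4.08-fold lower level. Both calls held in all 29 alternatives run, at −2.03 to −3.04 and at −1.52 to −2.53.

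The upstream sequences of Lama5, the chain with the steadiest fall, and of Itga5 are shown. Itga5, the fibronectin receptor subunit, was called lower in iMet than in iHRAS* tumours, a call kept in 5 of 23 alternatives. The sequences come from the RefSeq promoter table for GRCm38.p6, and only bases outside the annotated gene body are printed. The capitals mark every match to the GC box GGGCGG, searched on both strands. RefSeq entries matched 17 of the 26 members. In the 250 bases before the start given in the table, Lama5 held 4 GC boxes and Itga5 held 2, and 32.7% of 32851 promoters in the table held at least 1. The TATA box TATAAA and the AP-1 site TGANTCA, searched on both strands, had 0 matches in either window, against 12.4% and 6.75% of all promoters. The stretch of Lama5 stops 45 bases before that start, where the annotated gene begins, and so shows 3 of its 4 boxes, and that of Itga5 runs up to the start. A match is a description of these letters and not a bound site.
Lama5, chr2:180225905-180226109, minus strand: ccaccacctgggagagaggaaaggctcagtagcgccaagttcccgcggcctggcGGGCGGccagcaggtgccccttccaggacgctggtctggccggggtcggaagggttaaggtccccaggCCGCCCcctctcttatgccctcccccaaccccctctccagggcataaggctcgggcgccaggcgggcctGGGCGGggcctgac
Itga5, chr15:103366792-103367041, minus strand: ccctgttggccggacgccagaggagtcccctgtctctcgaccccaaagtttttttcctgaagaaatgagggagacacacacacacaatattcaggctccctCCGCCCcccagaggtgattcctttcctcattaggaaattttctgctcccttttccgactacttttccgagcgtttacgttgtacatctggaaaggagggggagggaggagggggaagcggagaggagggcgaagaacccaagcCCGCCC

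Lamb3 (chromosome 1), the β chain of laminin-332, had a lowest, median and highest log2 signal of 4.50, 5.43 and 6.10 in iMet tumours and of 4.95, 6.27 and 9.09 in iHRAS* tumours, against 9.05, 9.28, 7.68 and 9.47 on melanocyte arrays 1 to 4. Every iMet array was under the background level and under every melanocyte array, and iHRAS* array 2 was within the range of the melanocytes. The difference was −3.49 ± 0.64 in iMet tumours (SE, adjusted p = 0.000739) and −2.53 ± 0.64 in iHRAS* tumours (SE, adjusted p = 0.00576). The second call was lost without melanocyte arrays 2 and 4 together (−2.03, adjusted p = 0.0934), and the first held in all 28 alternatives.

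Lama3 (chromosome 18), the α chain of laminin-332, had a lowest, median and highest log2 signal of 4.93, 5.78 and 6.34 in iMet tumours and of 5.45, 6.35 and 8.60 in iHRAS* tumours, against 7.83, 9.55, 7.23 and 10.21 on melanocyte arrays 1 to 4. The highest iHRAS* value was again that of array 2, and the iMet range lay under that of the melanocytes. The difference was −2.96 ± 0.61 in iMet tumours (SE, adjusted p = 0.00177) and −2.14 ± 0.61 in iHRAS* tumours (SE, adjusted p = 0.0122). The iHRAS* call was lost without melanocyte array 4 (−1.64, adjusted p = 0.052). Leaving out melanocyte arrays 2 and 4 together ended both calls, at −1.79 (adjusted p = 0.0563) in iMet and −0.96 (adjusted p = 0.288) in iHRAS* tumours.

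Itgb4 (chromosome 11), the hemidesmosomal β subunit, had a lowest, median and highest log2 signal of 7.43, 8.31 and 9.52 in iMet tumours and of 8.38, 9.25 and 10.10 in iHRAS* tumours, against 9.68, 10.92, 8.77 and 10.88 on melanocyte arrays 1 to 4. Arrays 2 and 4 were above all tumour arrays, and array 3 was inside both tumour ranges. The difference was −1.65 ± 0.49 in iMet tumours (SE, adjusted p = 0.0174) and −0.72 ± 0.49 in iHRAS* tumours (SE, adjusted p = 0.26). The iMet call was lost without melanocyte array 2 (−1.36, adjusted p = 0.068) or 4 (−1.37, adjusted p = 0.0624), and without both it was −0.81 (adjusted p = 0.311). With arrays 1 and 3 left out instead, the iHRAS* difference was called too (−1.55, adjusted p = 0.0393).

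Itga6 had 10.62, 11.56, 10.20 and 12.09 on melanocyte arrays 1 to 4, with arrays 2 and 4 again the highest, and all 4 were above the iMet range given earlier. It fell by 1.49 ± 0.29 in iMet tumours (SE, adjusted p = 0.00115). It was at −0.58 ± 0.29 in iHRAS* tumours (SE, adjusted p = 0.122), where it was called without melanocyte array 3 (−0.89, adjusted p = 0.0157) and with its second probe set (−1.05, adjusted p = 0.0313). The iMet call held in all 29 alternatives, and without melanocyte arrays 2 and 4 it was −0.78 (adjusted p = 0.0172). Itga3 and Itga7 averaged 10.63 ± 0.66 and 8.08 ± 0.35 in melanocytes (SD, n = 4). In iMet tumours they fell (−1.61 ± 0.42 and −1.36 ± 0.39, SE, adjusted p = 0.0084 and 0.014). In iHRAS* tumours they were at −0.71 ± 0.42 and −0.61 ± 0.39 (SE, adjusted p = 0.193 and 0.228). The other probe sets of Itga3 gave −1.37 ± 0.48 (adjusted p = 0.0347) and −1.07 ± 0.74 (adjusted p = 0.266) in iHRAS* tumours. Both were called in iMet tumours (−2.0 and −2.63, adjusted p = 0.00519 and 0.0136). Without melanocyte arrays 2 and 4 the iMet difference of Itga3 was −1.16 (adjusted p = 0.136), and without arrays 1 and 3 that of Itga7 was −1.16 (adjusted p = 0.116).

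On the melanocyte arrays Krt5 and Krt14 followed the same order of arrays as several laminin chains and laminin-binding integrin subunits, not only those of laminin-332. Krt5, Krt14, Itga3, Itga6, Itgb4, Lama3, Lamb3, Lama5 and Lamc1 each had their lowest melanocyte value on array 3 and their 2 highest on arrays 2 and 4. Itga7 differed, with its highest value on array 3. Col17a1, the collagen of the hemidesmosome, had 9.13, 12.16, 7.55 and 12.56 on melanocyte arrays 1 to 4, and it fell by 5.32 ± 1.42 in iMet tumours (SE, adjusted p = 0.00949). The part of the keratin-high arrays in the differences was not tested beyond leaving them out.

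Lama2 (chromosome 10), the α chain of the laminin of muscle and peripheral nerve, had a lowest, median and highest log2 signal of 5.03, 6.08 and 7.26 in iMet tumours and of 6.47, 7.67 and 9.33 in iHRAS* tumours, against 1.93, 5.07, 3.55 and 5.46 on melanocyte arrays 1 to 4. All 6 iHRAS* arrays and 3 of 6 iMet arrays were above the background level, and 0 of 4 melanocyte arrays were. The difference was 2.10 ± 0.72 in iMet tumours (SE, adjusted p = 0.0344) and 3.74 ± 0.72 in iHRAS* tumours (SE, adjusted p = 0.00106), against melanocyte signals that are near background. The iHRAS* call held in all 27 alternatives, at 2.48 to 5.16. The iMet call was lost without melanocyte array 1 (1.41, adjusted p = 0.14) or 3 (1.95, adjusted p = 0.0815) and without iMet array 2, 3 or 5 (1.87 to 2.07, adjusted p of 0.0549 to 0.0697).

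Lama4 (chromosome 10), the α chain of endothelial and mesenchymal laminins, had a lowest, median and highest log2 signal of 8.54, 10.65 and 11.38 in iMet tumours and of 10.23, 10.30 and 10.80 in iHRAS* tumours, against 9.28, 8.33, 9.75 and 7.98 on melanocyte arrays 1 to 4. The iHRAS* range was above that of the melanocytes, and iMet arrays 5 and 6 were inside it. The difference was 1.41 ± 0.48 in iMet tumours (SE, adjusted p = 0.0341) and 1.59 ± 0.48 in iHRAS* tumours (SE, adjusted p = 0.0169). Both calls were lost without melanocyte array 2 (1.24 and 1.42, adjusted p = 0.1 and 0.0583) or 4 (1.12 and 1.31, adjusted p = 0.113 and 0.064), and the iMet call also without iMet array 1, 2, 3 or 4 (1.18 to 1.37, adjusted p of 0.0575 to 0.0701). The gene's other probe set gave 0.76 (adjusted p = 0.313) in iMet and −0.06 (adjusted p = 0.943) in iHRAS* tumours, so the increase in iHRAS* tumours rests on a single probe set.

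Lamc1 had 11.05, 11.13, 10.76 and 11.48 on melanocyte arrays 1 to 4, above every iHRAS* array and overlapping the range of the iMet arrays. It fell by 0.65 ± 0.20 in iHRAS* tumours (SE, adjusted p = 0.0169). It was at 0.49 ± 0.20 in iMet tumours (SE, adjusted p = 0.069). The iHRAS* call was lost without melanocyte array 4 (−0.53, adjusted p = 0.0641). A call in iMet tumours appeared without melanocyte array 4 (0.61, adjusted p = 0.0396) or iMet array 5 (0.63, adjusted p = 0.00907). Lamb1 averaged 10.69 ± 0.27 in melanocytes (SD, n = 4). It rose by 0.63 ± 0.16 in iMet tumours (SE, adjusted p = 0.00778), where all 6 arrays were above all 4 melanocyte arrays. It was at 0.27 ± 0.16 in iHRAS* tumours (SE, adjusted p = 0.194). With arrays centred on their medians the iMet difference of Lamb1 was 0.35 (adjusted p = 0.18), and without melanocyte arrays 2 and 4 it was 0.47 (adjusted p = 0.0929). The other probe set of Lamc1 gave −1.76 ± 0.42 in iHRAS* tumours (adjusted p = 0.00456), a larger difference than the −0.65 above, and −0.14 in iMet tumours (adjusted p = 0.824). The other probe sets of Lamb1 gave 0.66 and 0.87 in iMet tumours (adjusted p = 0.00483 and 0.00722), both called, and −0.22 and −0.15 in iHRAS* tumours (adjusted p = 0.269 and 0.617).

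Itgb7 (chromosome 15), which in leukocytes pairs with α4 or αE, had a lowest, median and highest log2 signal of 6.57, 7.0 and 7.73 in iMet tumours and of 4.65, 7.71 and 8.15 in iHRAS* tumours, against 4.91, 4.07, 4.49 and 6.61 on melanocyte arrays 1 to 4. The iHRAS* array 3 and melanocyte arrays 1 to 3 were under the background level. The difference was 2.02 ± 0.61 in iMet tumours (SE, adjusted p = 0.0183) and 2.22 ± 0.61 in iHRAS* tumours (SE, adjusted p = 0.0097). The iMet call was lost without melanocyte array 2 (1.70, adjusted p = 0.0689) or 3 (1.84, adjusted p = 0.0523), and without arrays 1 and 3 together both were lost (1.70 and 1.90, adjusted p = 0.142 and 0.0864).

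Itga9 (chromosome 9), whose product binds tenascin-C, osteopontin and VCAM-1, had a lowest, median and highest log2 signal of 6.23, 6.78 and 7.89 in iMet tumours and of 6.08, 7.24 and 7.94 in iHRAS* tumours, against 6.20, 5.89, 6.26 and 5.06 on melanocyte arrays 1 to 4. The tumour ranges overlapped the melanocyte range at its upper end. The difference was 1.06 ± 0.38 in iMet tumours (SE, adjusted p = 0.0427) and 1.37 ± 0.38 in iHRAS* tumours (SE, adjusted p = 0.0106). Another probe set of the gene gave larger differences, 2.58 ± 0.78 and 2.74 ± 0.78 in the same order (SE, adjusted p = 0.019 and 0.0121). The iMet call was lost without any 1 of melanocyte arrays 1, 2 and 4, iMet arrays 2, 3, 4 and 6 and iHRAS* array 6 (0.79 to 1.17, adjusted p of 0.0507 to 0.144). The iHRAS* call held when any 1 array was left out and was lost without melanocyte arrays 2 and 4 together (0.99, adjusted p = 0.143).

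Macrophage, endothelial and fibroblast markers moved with these 4 genes that rose. The macrophage marker mean was 11.10 ± 0.28 in iMet tumours, 10.30 ± 0.87 in iHRAS* tumours and 4.75 ± 0.24 on melanocyte arrays (log2, SD, n = 6, 6 and 4). The endothelial mean was 7.96 ± 0.67, 7.18 ± 0.40 and 4.54 ± 0.47 in the same order. The fibroblast mean was 11.67 ± 0.30, 11.94 ± 0.41 and 9.28 ± 1.56. Each tumour group lay wholly above the melanocytes in all 3 lists (two-sided exact permutation p = 0.004762, the smallest possible, adjusted p = 0.0159). All 9 macrophage markers averaged above background in both tumour groups, and 3 of 9 did in melanocytes, where Adgre1, Cd14, Fcgr3, Mrc1, C1qa and C1qb did not. Of 12 endothelial markers 11, 9 and 2 averaged above background in iMet tumours, iHRAS* tumours and the melanocyte group. Pecam1 and Cdh5 were among those that did not in melanocytes. The lymphocyte mean was 4.32 ± 1.22, 5.42 ± 1.05 and 3.45 ± 0.52 in iMet tumours, iHRAS* tumours and melanocytes, with most markers under background. Against melanocytes its exact permutation test gave adjusted p of 0.304 for iMet and 0.039 for iHRAS* tumours. The skeletal muscle mean was 7.01 ± 1.58, 6.14 ± 1.80 and 4.73 ± 0.48 (adjusted p of 0.0762 and 0.234 by the same test). The part of any of these cells in the tumour levels was not tested.

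The RGD-binding subunits and the common β subunits were not called against melanocytes in the main fit, though some were in alternatives. Itga5 had 11.82, 9.12, 11.06 and 8.97 on melanocyte arrays 1 to 4, a wide spread with arrays 2 and 4 low. Its differences were 0.30 ± 0.46 in iMet and 1.00 ± 0.46 in iHRAS* tumours (SE, adjusted p = 0.643 and 0.0993). The iHRAS* difference was called without melanocyte array 1 (1.52, adjusted p = 0.0104). On removal of melanocyte arrays 1 and 3 both differences of Itga5 were called (1.5 and 2.20, adjusted p = 0.00305 and 0.000198). Itgb3 had 7.21, 3.54, 7.0 and 3.67 on those arrays, with arrays 2 and 4 again low. It was at −1.66 ± 0.95 in iMet and 1.01 ± 0.95 in iHRAS* tumours (SE, adjusted p = 0.189 and 0.422). It was called in iMet tumours without iMet array 4 (−2.29, adjusted p = 0.0459) or with melanocyte arrays 2 and 4 left out (−3.41, adjusted p = 0.0303).

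Itgb1 averaged 12.18 ± 0.53 in melanocytes (SD, n = 4) and was at −0.50 ± 0.24 in iMet and −0.21 ± 0.24 in iHRAS* tumours (SE, adjusted p = 0.124 and 0.521). In iMet tumours it was called as lower with median-centring (−0.72, adjusted p = 0.0207) and the keratinocyte covariate (−0.65, adjusted p = 0.0415). Array weights (−0.705, adjusted p = 0.00993) and the mean of all probe sets (−1.05, adjusted p = 0.00712) gave the same call. The mean of all probe sets, some of them near background, also called it lower in iHRAS* tumours (−0.88, adjusted p = 0.0178). Itgav, Itgb5, Itga2b, Itga8 and Lamb2 had differences of −0.53 to 0.20 in iMet tumours (adjusted p of 0.207 to 0.731) and of −0.24 to 0.21 in iHRAS* tumours (adjusted p of 0.185 to 0.933). Itga8, a subunit of mesenchymal cells, spread from 3.62 to 8.99 over the 4 melanocyte arrays, so the error of its difference (0.87, SE) was large. Without melanocyte arrays 2 and 4, Itga8 and Itgb1 were called as lower in iMet tumours (−2.40 and −0.95, adjusted p = 0.0429 and 0.0173). The platelet subunit Itga2b was at 6.6 ± 0.21 in iMet tumours, 6.46 ± 0.31 in iHRAS* tumours and 6.70 ± 0.14 on melanocyte arrays (SD, n = 6, 6 and 4). Without iHRAS* array 4 its iHRAS* difference of −0.36 passed the threshold (adjusted p = 0.05 as rounded).

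Among the 5 members left out of every test, Itga2 and Lama1 were above the background level on 0 of 16 arrays. With the probe set used here, Itga4 was above it on 2 iHRAS* arrays, Itgb6 on 1 and Lamc3 on 2, and none of them on an iMet or a melanocyte array. Another probe set of Itga4 was above it on 5 arrays and gave 0.81 in iMet and 1.20 in iHRAS* tumours against melanocytes (adjusted p = 0.606 and 0.413). The probe set used here was called higher in iHRAS* tumours with values as deposited and with no filter. Lama1, the α chain of embryonic laminin, averaged 1.67 ± 0.79 in iMet tumours, 3.10 ± 1.64 in iHRAS* tumours and 5.12 ± 1.10 on melanocyte arrays (SD, n = 6, 6 and 4). With no filter Lama1 was called lower in iMet tumours than in melanocytes. At such signals no difference is read.

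**Figure D4:**
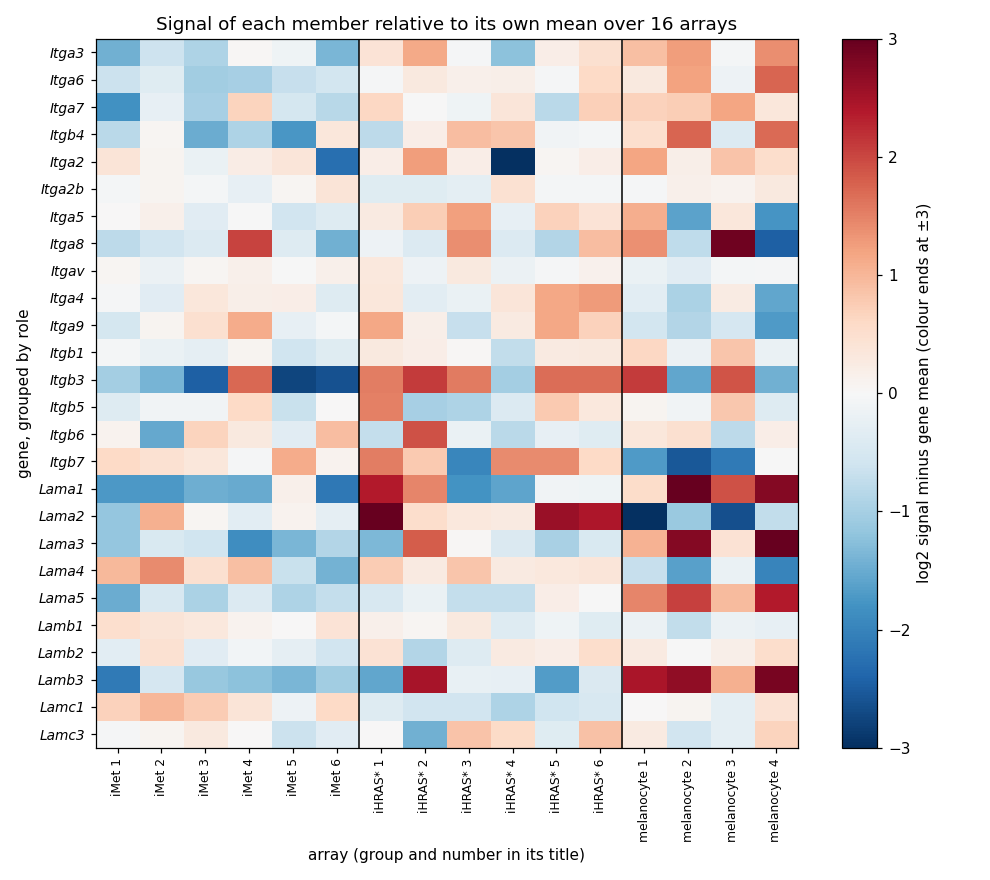
Log2 signal of each of the 26 members (rows, grouped by role) on each of the 16 arrays (columns), as the difference from the gene's own mean over all arrays. Red is higher and blue lower, with colour ending at 3 on either side. Lama3, Lama5 and Lamb3 are red on the melanocyte arrays, and melanocyte arrays 2 and 4 differ in colour from arrays 1 and 3 for Itga5, Itgb3 and Itga8.

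Without melanocyte array 2, iMet array 2 or iMet array 3, 2 members in place of 5 rose in iMet tumours, and without melanocyte array 1 or 3 or iMet array 4, 3 did. Without melanocyte array 4, 2 members in place of 4 fell in iHRAS* tumours. Without melanocyte arrays 2 and 4 together, 2 rose and 7 fell in iMet tumours, and 2 rose and 1 fell in iHRAS* tumours, where Lama5 was the member that fell. Without arrays 1 and 3 together, when Itga4 passed the filter and was among those that rose, 5 rose and 6 fell in iMet tumours, and 5 rose and 6 fell in iHRAS* tumours.

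Laminin is anchored through other basement membrane proteins, and those were followed as a list of 18 genes, 15 of them measured. Between the models 0 of 10 tested rose and 3 fell in iMet tumours, which were Smoc2 (−3.73 ± 0.48), the proteoglycan agrin, the product of Agrn (−1.74 ± 0.24), and nidogen-2, the product of Nid2 (−1.29 ± 0.41; SE, adjusted p of 0.000379, 0.000624 and 0.0436). For this and the following lists, the shares of all tested genes called were 20.9% between the models, 35.1% in iMet tumours against melanocytes and 39.3% in iHRAS* tumours against melanocytes. Against melanocytes, Nid1, which links laminin to type IV collagen, rose by 3.26 ± 0.69 in iMet tumours (adjusted p = 0.00216) and by 3.64 ± 0.69 in iHRAS* tumours (adjusted p = 0.000929). Of 13 tested, 2 rose and 1 fell in iMet tumours, where perlecan, the product of Hspg2, was the other that rose (0.74 ± 0.25, adjusted p = 0.0322) and Agrn the one that fell (−2.37 ± 0.27, adjusted p = 1.05e-05). In iHRAS* tumours 3 rose and 2 fell, with Smoc2 at 4.29 ± 0.54 (adjusted p = 3.11e-05), Nid2 at 2.28 ± 0.46 (adjusted p = 0.00148) and the type IV collagen chain Col4a5 at −3.34 ± 0.86 (adjusted p = 0.00682).

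Of 7 laminin receptors or their partners outside the integrins, 0 rose and 2 fell in iMet against iHRAS* tumours, against 20.9% of all tested genes called, namely dystroglycan, the product of Dag1 (10.25 ± 0.29 in iMet and 11.38 ± 0.38 in iHRAS* tumours, SD, n = 6 each; −1.13 ± 0.19 SE, adjusted p = 0.00171), and ε-sarcoglycan, the product of Sgce (−1.68 ± 0.20, adjusted p = 0.000257). Against melanocytes, Sgce, Dag1 and the laminin α5 receptor Bcam fell in iMet tumours (−1.97 ± 0.36, −1.12 ± 0.21 and −2.24 ± 0.72; adjusted p of 0.000707, 0.00107 and 0.0245) and Rpsa rose by 0.29 ± 0.09 (adjusted p = 0.0246). By limma, 0 of 7 were called in iHRAS* tumours, where 2 had an unadjusted p under 0.05. Of 4 hemidesmosome partners, 0 were called between the models by limma, and 2 had an unadjusted p under 0.05. Cd151, the tetraspanin that binds laminin-binding integrins, fell against melanocytes (−1.17 ± 0.21 in iMet and −0.87 ± 0.21 in iHRAS* tumours, SE, adjusted p = 0.000638 and 0.00429), and Plec rose in iHRAS* tumours (0.81 ± 0.16, adjusted p = 0.00133).

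Among 21 adaptors and activators on the inner side of integrins, 2 rose and 3 fell in iMet against iHRAS* tumours, a share near the 20.9% of all tested genes. The scaffold proteins paxillin, Crk and Lims2 were lower (Pxn −0.59 ± 0.16, Crk −0.57 ± 0.13 and Lims2 −1.08 ± 0.27; adjusted p of 0.0233, 0.00893 and 0.013), and zyxin was higher (Zyx 0.52 ± 0.17, adjusted p = 0.0421). Against melanocytes 3 rose and 6 fell in iMet tumours, and 6 rose and 7 fell in iHRAS* tumours, beside 35.1% and 39.3% of all tested genes. Zyx and Lims2 fell in iMet (−1.47 ± 0.23 and −2.78 ± 0.38, adjusted p = 0.000236 and 7.19e-05) and in iHRAS* tumours (−1.99 ± 0.23 and −1.69 ± 0.38, adjusted p = 1.59e-05 and 0.00283). Src fell in iMet tumours (−0.94 ± 0.20, adjusted p = 0.00188) and Actn1 in iHRAS* tumours (−0.79 ± 0.17, adjusted p = 0.00187). Kindlin-3, the product of Fermt3, which is made by blood cells, rose by 5.95 ± 0.66 in iMet and by 5.66 ± 0.66 in iHRAS* tumours (SE, adjusted p = 1.03e-05 and 1.79e-05). Of the leukocyte integrins outside the rule, Itgb2 rose by 4.68 ± 0.47 and 4.64 ± 0.47 in the same order (SE, adjusted p = 3.56e-06 and 4.45e-06). Itgam rose by 5.06 ± 0.40 and 3.59 ± 0.40 (SE, adjusted p = 3.87e-07 and 1.2e-05). In all, 3 of 5 rose in iMet and 4 of 5 in iHRAS* tumours. Between the models Itgam was higher in iMet tumours (1.47 ± 0.34, adjusted p = 0.0096) and was the only one of 3 tested that was called.

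Integrin ligands other than laminins were a list of 26 symbols, of which 21 were measured. Cyr61, Ctgf and Nov on that list are older symbols of Ccn1, Ccn2 and Ccn3, which were measured under the newer ones. Between the models 1 of 15 tested rose and 2 fell in iMet tumours, a share near the 20.9% of all tested genes. Tenascin-C, the product of Tnc and a ligand of Itga9, was at −1.94 ± 0.54 (SE, adjusted p = 0.0247), Emilin1 at −1.47 ± 0.43 (adjusted p = 0.0295) and the endothelial Egfl7 at 1.07 ± 0.25 (adjusted p = 0.0099). Against melanocytes 5 of 16 rose and 4 fell in iMet tumours, and 5 rose and 2 fell in iHRAS* tumours, beside 35.1% and 39.3% of all tested genes. Thrombospondin-1, the product of Thbs1, fell in both models (−4.53 ± 0.49 in iMet and −3.65 ± 0.49 in iHRAS* tumours, SE, adjusted p = 7.85e-06 and 5.92e-05), and Vwf, the endothelial von Willebrand factor, rose by 5.01 ± 0.73 and 6.06 ± 0.73 in the same order (adjusted p = 0.000124 and 2.11e-05).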

How the data were processed

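RNA was hybridised to Affymetrix mouse 430A 2.0 arrays, 1 per sample, and the authors deposited a table of log2 signals per probe set, per the file headers. The step between scanner values and signals is not stated in the labels or headers, and the deposited log2 values have array medians that differ by up to 0.720. The number of arrays limits the precision, and no detection calls were used. After removal of 64 control probe sets, the values of the other 22626 were quantile-normalized over all 16 arrays. The platform annotation gave 1 symbol for 20380 probe sets, several for 691 and none for 1555, and each gene was represented by its probe set of highest mean. Genes above the 40th percentile (6.21) on at least 6 arrays (tumours) or 4 arrays (against melanocytes) were tested with limma 3.58.1 (R 4.3.3), lmFit and eBayes, two-sided, with Benjamini-Hochberg adjustment over all genes tested. The tumour comparison was fitted on 12 arrays and the melanocyte comparisons on 16. The scripts were tested on simulated data.

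Members, marker lists and gene lists were chosen with earlier results of these data known, so neither the lists nor the directions already seen are independent evidence. Values per array are given for members called between the models and for the 4 largest called increases and decreases of each model against melanocytes, and other lists give up to 4 members of smallest p. Itga3, Itga7 and Lamb1 were called against melanocytes outside that rule and are given as means. The alternatives covered scaling, filter, probe-set choice, arrays left out, the replicate number as a block and array weights. Python 3.11.15, pandas 2.3.3 and matplotlib 3.10.9 were used.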

Additional observations from a re-analysis of the deposited data

Results flagged for a closer look

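Among 78 pairs of a member and a group, 11 held an array whose gap to the others was wide for the group's range by Dixon's criterion, which chance meets in about 1 of 20. In iHRAS* tumours array 4 stood apart for Itga2 (1.68, the other arrays 5.0 to 6.20), Itga2b (7.03, others 6.21 to 6.52), Itgb1 (11.17, others 11.95 to 12.21) and Itgb3 (4.08, others 6.65 to 7.22). Array 2 stood apart for Itgb6 (6.21, others 3.50 to 4.10) and Lamb3 (9.09, others 4.95 to 6.39), and array 3 for Itgb7 (4.65, others 7.21 to 8.15). In iMet tumours array 6 stood apart for Itga2 (2.68, others 4.75 to 5.32), array 4 for Itga8 (8.10, others 4.62 to 5.68) and array 5 for Lama1 (3.21, others 0.93 to 1.60). Among melanocytes array 2 stood apart for Lamb1 (10.28, others 10.77 to 10.85). Several of these signals lie near background.

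Both models were set against the same melanocyte arrays, so the difference between their effects is the contrast of the models. In the fit of the 12 tumour arrays limma called it for Lamc1 (1.14, adjusted p = 0.00114), Itga6 (−0.91, adjusted p = 0.00136), Itgb3 (−2.67, adjusted p = 0.0245) and Itga5 (−0.70, adjusted p = 0.0398). In the fit of all 3 groups the adjusted p was 0.000722 for Lamc1, 0.022 for Itga6 and 0.0388 for Itgb3, and Itga5 was not called (0.25).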

How the results depend on the processing

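Of 1597 values recomputed under the alternatives, 1447 kept their side of the threshold, 84 lost a call, 48 gained one, 17 moved without a call and 1 reversed, which was Lama4 in iHRAS* tumours against melanocytes with its other probe set (−0.058, adjusted p = 0.943). The sign changed in 55, of which 54 were called under neither setting. Members higher in iMet than in iHRAS* tumours numbered 1, and 2 with values as deposited, with the mean of all probe sets and with array weights. Members lower there numbered 3, but 6 with array weights, 1 with the replicate number as a block and 1 without iHRAS* arrays 5 and 6. Members higher in iMet tumours than in melanocytes numbered 5, but 3 with arrays centred on their medians, with no filter, with the mean of all probe sets, with the replicate block and with a fit on 2 groups alone, and 2 with a 60th percentile filter or without melanocyte arrays 2 and 4. Members higher in iHRAS* tumours than in melanocytes numbered 4, but 1 with the 60th percentile filter and 2 without melanocyte arrays 2 and 4, where 1 in place of 4 was lower. With single arrays left out, the counts ran over 1 to 2 higher and 1 to 6 lower between the models, 2 to 5 higher and 6 to 8 lower in iMet tumours against melanocytes, and 3 to 5 higher and 2 to 5 lower in iHRAS* tumours against them. The cause was not tested, except that a stricter filter and fewer arrays leave fewer genes or samples to test. Same-numbered arrays did not deviate together (correlations of −0.22 to 0.11 between the models), and each array correlated best with its own number in 1 of 6 cases between the models. The keratinocyte mean as a covariate left 438 of 8058 genes called between the models, against 1687 without it, and kept Lamc1 (1.28, adjusted p = 0.0135) and Itgb3 (−4.17, adjusted p = 0.0162) but not Itga5 (adjusted p = 0.0842). Values as deposited moved the median of all genes to 0.23 between the models and to −0.21 for iHRAS* tumours against melanocytes, and median-centring moved it to −0.22 and −0.23 for iMet and iHRAS* tumours against melanocytes. Signals near background, such as those of Itgb3, Lama2 and Lamb3, set no firm fold.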
